A study of Chlamydomonas reinhardtii with 6 samples.

Results

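The genes described here are 89 genes of Chlamydomonas reinhardtii, a unicellular green alga, that the authors' deposited table of UV-B responsive genes places in a transport category. They were chosen from the 2596 genes of that table, out of 13452 genes measured, because the functional category begins with "transport". That category holds 94 genes, and 5 of these, which carry ammonium, phosphate or sugar phosphates, were left out. The table holds genes that differ by at least 2-fold between cultures with and without UV-B, so the direction and size of each difference were used to choose the genes, and they are given below as a description, without tests. RNA was sequenced from 6 cultures of strain CC-125 (137c mt+), with no transgene or mutation named in the labels, which were lit weakly, at 3.6 µmol m-2 s-1, in acetate medium. The filters over 3 of them passed UV-B from lamps giving 0.07 mW/cm2 (UV-B 1 h), and the filters over the 3 others blocked it (no UV-B). All were sampled after 1 h. The labels describe independent stationary cultures, and also say that the dishes were filled from a diluted starter culture and grown for 4 days, so the spread between libraries is that of dishes. The filter edges lay at 311 nm and 360 nm, so the comparison includes light between these wavelengths. Values are normalised read counts, relative to an effective library size on a scale close to that of CPM (counts scaled to a common library size), with n = 3 libraries per group. Being relative, they cannot tell a change in transcripts per cell from a change in the rest of the RNA.

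Membrane transport proteins fall into a few mechanistic classes. Pumps spend ATP or pyrophosphate to move protons, metal ions or larger molecules across a membrane, secondary carriers use the gradients that pumps build, and channels let ions pass down their gradients. In an alga the plasma membrane faces the medium, acidic vacuoles store calcium, metals and polyphosphate, and the envelopes of the chloroplast and the mitochondrion exchange ATP, sugar phosphates and organic acids with the cytosol. ATP-binding cassette (ABC) proteins form the largest class of ATP-driven transporters in plants and algae, with subfamilies named by letters from A onward, and move lipids, pigments, drugs and conjugates.

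The annotation did not bear out the name of a transporter for every gene. The conserved domains listed for 8 genes of the ABC category are those of ABC1 kinases (AarF and ubiB), which share only the abbreviation with ABC transporters. In yeast the ABC1 kinase Coq8 is needed for ubiquinone synthesis. Another 4 genes of that category start their domain list with Uup, a protein of the ABCF subfamily. ABCF proteins have the ATPase domain but no membrane part, and their yeast relatives act at the ribosome. Cre12.g496200, in the miscellaneous category, carries the exportin domain Xpo1 of nuclear export, and Cre12.g526700, among the cation transporters, is described as a rhomboid-like protease. These 14 genes are kept below and are named as what their domains or, for the protease, their description says. Whether all the other genes encode transporters was not tested. For 9 genes neither a description nor a domain is given, and only the category names them.

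With UV-B, 52 of the 89 genes were higher and 37 were lower, with the selection of the authors' table behind both counts. The share of higher genes was 58.4% here, 50.1% in the authors' whole table and 53.6% among its genes with a category. The difference between these shares was not tested. The fitted differences ran from 0.69 to 2.49 among the higher genes and from -2.66 to -0.67 among the lower genes (log2 fold changes). They are on a scale of log2(value + 1), on which low genes show less change than in their plain ratio. The medians were 1.24 for the higher genes and -1.22 for the lower genes, sizes that the 2-fold selection largely sets. Over all 89 the median was 0.99, which falls among the more numerous higher genes because the selection left out genes with little change. Over the 13415 genes tested it was 0.00, and nothing is read from the difference. Over all genes tested, 59.0% passed an adjusted p of 0.05 in limma's test (29.5% higher and 29.6% lower); the 89 genes, already selected on this comparison, are not set against that share. On this scale 44 genes were at least 2-fold higher and 28 at least 2-fold lower, against 6.57% and 6.48% of all genes (13.1% in either direction). With a pseudocount of 5 in place of 1, these counts were 30 and 13, and with a pseudocount of 0.1 they were 52 and 37. No value of 1 group reached into the range of the other in 88 of the 89 genes, 51 higher and 37 lower, and in 63.2% of all genes (31.7% higher and 31.6% lower). Because the authors' table had already selected on this comparison, nothing is read from these shares. The same holds where a lack of overlap is given for single genes below. The 14 genes annotated as other proteins were 11 higher and 3 lower, which leaves 41 higher and 34 lower among the other 75. The summed normalised counts of all 89 genes went from 3427 ± 99.0 to 4460 ± 91.9 (mean ± SD), and without Cre03.g164600 from 2761 ± 73.5 to 4355 ± 97.1.

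**Figure D1:**
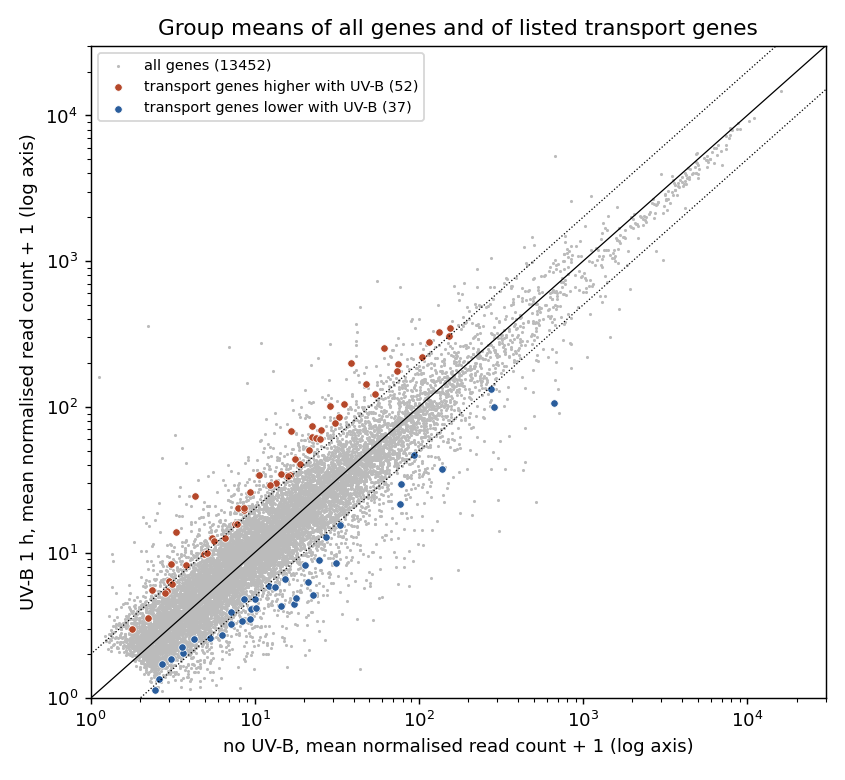
Mean normalised read count plus 1 without UV-B (x axis, log scale) and with UV-B for 1 h (y axis, log scale) for 13452 genes in grey, with the 52 higher (red) and 37 lower (blue) transport genes; the solid line marks equal values and the dotted lines 2-fold differences. Transport genes lie on both sides of the diagonal at low and high values, and the blue point at the far right, well below the diagonal, is Cre03.g164600.

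**Figure D2:**
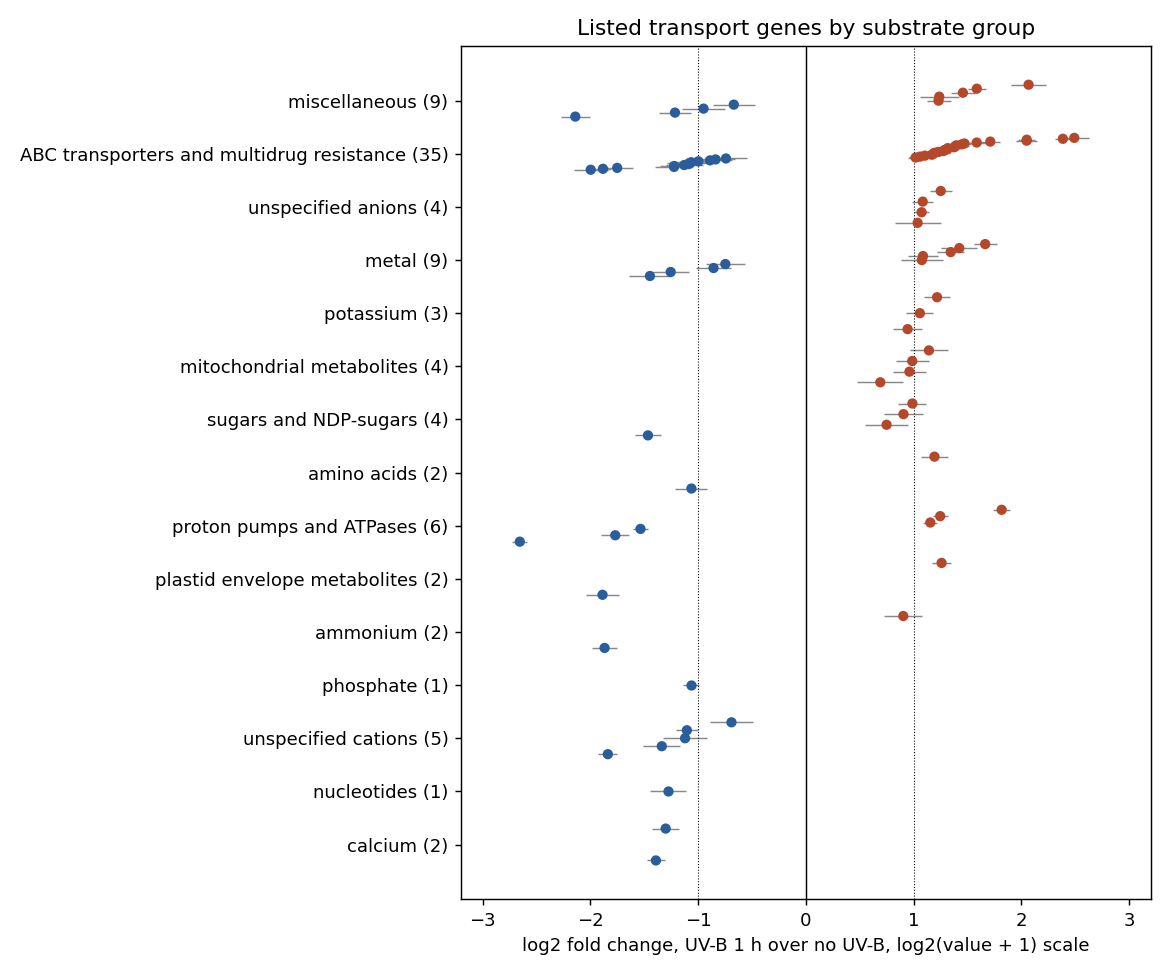
Log2 fold change (UV-B 1 h over no UV-B, log2(value + 1) scale) of each of the 89 genes by substrate group, with limma's standard error as bars and the number of genes in parentheses; dotted lines mark 2-fold. Potassium (3), mitochondrial (4) and unspecified anion (4) genes lie on the right, and calcium (2) and unspecified cation (5) genes on the left.

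Reads assigned to genes numbered 7868534 to 11972794 per library. The ratio of effective library size to that total ran from 0.926 to 1.00 without and from 1.02 to 1.077 with UV-B, without overlap between groups. Scaling every library to an equal total takes this ratio out. Of the 89 genes, 48 were then at least 2-fold higher and 24 at least 2-fold lower, against 44 and 28. Their median log2 fold change was then 1.09, against 0.99. What the ratio reflects was not tested. A gene of the list had between 47 and 22565 reads over the 6 libraries, with a median of 825. The median coefficient of variation between libraries of a group was 6.73% without and 7.93% with UV-B in the 61 genes with a mean of at least 10 in 1 group. It was 15.9% and 16.8% in the other 28, which have few reads.

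The proton pumps and other ATPases split into 3 higher and 3 lower genes, and 1 of the strongest decreases of the list was here. Vacuolar ATPases (V-ATPases) are multi-subunit pumps that acidify vacuoles with ATP, P-type ATPases form a phosphorylated intermediate, and the H+ pyrophosphatase uses pyrophosphate. Cre03.g164600, described as a P-type cation-transporting ATPase of the plasma membrane, had values of 635, 679.6 and 684 without UV-B and 98.7, 109 and 107 with UV-B. All no UV-B libraries lay far above all UV-B libraries, with a ratio of the means of 6.35 and a log2 fold change of -2.66 ± 0.07 (SE). This gene alone made up 34.1% of the summed normalised counts of the 37 lower genes without UV-B, a share that also depends on transcript length. The H+ pyrophosphatase gene g9782 went from 286 ± 18.6 to 98.2 ± 6.77 (mean ± SD), with a log2 fold change of -1.53 ± 0.07.

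Genes for V-ATPase subunits did not move as one. The subunit C gene Cre06.g250250 had values of 25.1, 28.6 and 29.4 without UV-B and 102, 97.6 and 101 with UV-B, a log2 fold change of 1.82 ± 0.08. The subunit G gene Cre11.g468550, a part of the stalk that links the ATPase head to the membrane, had values of 68.8, 74.8 and 75.5 without UV-B and 181, 173 and 170.4 with UV-B. Both were higher in every UV-B library than in any other. A pair of genes is described as subunit A, with the V_ATPase_I domain of the membrane-embedded part. One of them, Cre09.g402500, went from 155 ± 5.20 to 346 ± 9.53 (log2 fold change 1.16 ± 0.07). The other, Cre04.g220350, had values of 22.2, 18.3 and 20.2 without UV-B and 5.75, 4.64 and 5.30 with UV-B, a log2 fold change of -1.77 ± 0.13. The same named subunit thus had 1 gene higher and 1 gene lower with UV-B. No source used here says how reads shared between similar gene copies were assigned.

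**Figure D3:**
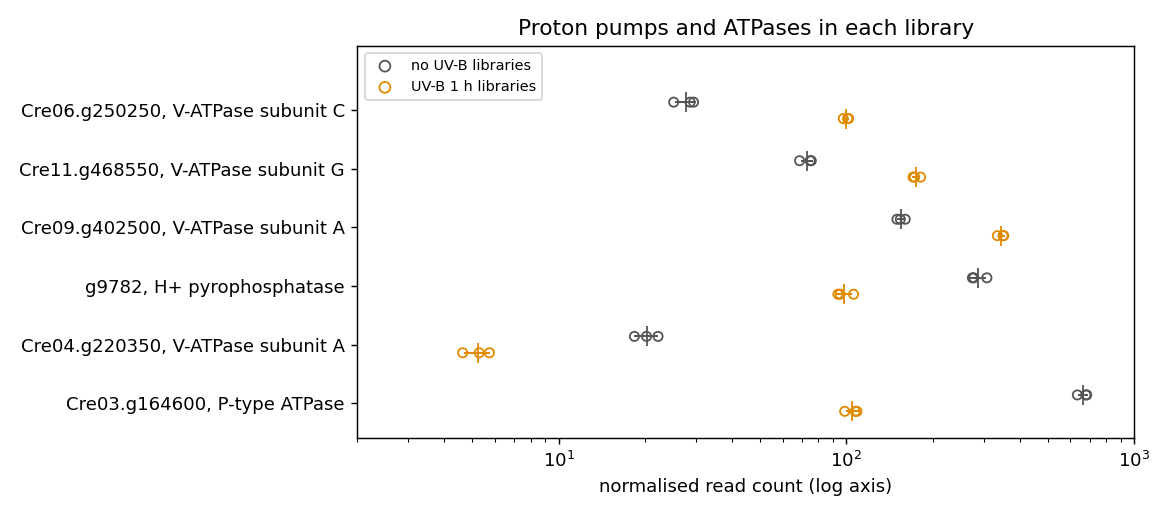
Normalised read count (log axis) of the 6 pump and ATPase genes in each library, with no UV-B libraries in grey and UV-B 1 h libraries in orange; vertical ticks are means and horizontal bars SDs (n = 3). The 3 upper genes are higher and the 3 lower genes lower with UV-B, with no overlap in any gene.

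The ABC category was the largest, with 35 genes, of which 22 were higher and 13 lower with UV-B. The genes are given here by the subfamily that their leading domains name. Without the ABC1 kinases and the ABCF genes, whose domains are not those of membrane transporters, 11 were higher and 12 lower. The ABC1 kinases were 7 higher and 1 lower, and the 4 ABCF genes were all higher. Over all 89 genes 58.4% were higher, and differences between these shares were not tested.

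Of the 8 ABC1 kinase genes, 7 were higher and 1 was lower, with a median log2 fold change of 1.30. Cre10.g429800, described as a ubiquinone biosynthesis protein, had the largest log2 fold change among the 52 higher genes, here and in the authors' deposited table. Its values were 2.85, 3.56 and 3.58 without UV-B and 23.1, 26.5 and 20.6 with UV-B, a log2 fold change of 2.49 ± 0.14. The next was g6053, from 21.3 ± 1.77 to 72.3 ± 8.24, followed by Cre09.g407800, described as an ABC1/COQ8 kinase, from 24.4 ± 1.42 to 68.1 ± 1.89. Cre08.g369150, g5204, g13907 and Cre10.g430800 had log2 fold changes from 1.06 to 1.38. The exception was Cre02.g105600, the ABC1 kinase described as an eyespot assembly protein; the eyespot is the pigmented organelle by which the alga orients to light. Its normalised count went from 92.5 ± 8.97 to 45.7 ± 3.06 (log2 fold change -0.998 ± 0.08).

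All 4 ABCF genes were higher with UV-B, with a median log2 fold change of 1.36. Cre14.g615950 went from 15.6 ± 2.47 to 67.5 ± 4.57, a ratio of the means of 4.31. Cre08.g372250 went from 74.1 ± 4.99 to 197 ± 9.25, and Cre01.g034950 from 30.1 ± 2.07 to 76.3 ± 1.93. g11711, also described as a flagellar associated protein, went from 151 ± 7.73 to 307 ± 11.2 and had the smallest log2 fold change of them, 1.02 ± 0.07.

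The 10 genes with ABCG domains (White and pleiotropic drug resistance) were 3 higher and 7 lower. ABCG proteins of plants export lipids, cuticle components and toxic compounds. The higher genes were g17986, from 46.5 ± 6.46 to 142 ± 16.2, Cre04.g220850, from 31.5 ± 7.43 to 84.6 ± 23.0, and Cre07.g313250, from 132 ± 7.47 to 324 ± 7.30. Cre04.g220850 varied most among them, with 82.2, 62.9 and 109 in the UV-B libraries. The largest decrease was in g11527, with values of 15.8, 16.1 and 17.5 without UV-B and 2.36, 3.61 and 4.39 with UV-B, a log2 fold change of -1.997 ± 0.16. Cre03.g169300 went from 13.5 ± 1.04 to 3.30 ± 0.184 and Cre04.g224400 from 32.0 ± 1.58 to 14.5 ± 0.555. The other lower genes, Cre05.g241350, Cre12.g547300, Cre07.g339104 and Cre02.g098700, had means under 10 in both groups and log2 fold changes from -1.13 to -0.84. In each of these 4 genes too, every UV-B library lay below every other library. The gap was narrow in Cre07.g339104, with 4.43 as its highest value with UV-B and 4.49 as its lowest without.

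The remaining ABC genes belong to small subfamilies. Both genes with the COG4586 domain, an uncharacterised ABC ATPase, were higher by about 2 or more on the log2 scale. Cre13.g580300 had values of 35.2, 40.4 and 36.7 without UV-B and 211, 194 and 194 with UV-B, a ratio of the means of 5.34 and a log2 fold change of 2.39 ± 0.08. The other, Cre17.g731050, went from 60.6 ± 7.01 to 254 ± 18.002 (log2 fold change 2.05 ± 0.08). Cre17.g725150, which starts its domain list with MdlB, a multidrug exporter of bacteria related to ABCB proteins, had the largest decrease of the small subfamilies. Its values were 137, 129 and 144 without UV-B and 36.9, 33.4 and 38.8 with UV-B, a log2 fold change of -1.88 ± 0.08. The ABCB-like g16288 also was lower, from 14.2 ± 1.03 to 5.53 ± 0.615. Cre17.g727650, described as a half-size ABC transporter, carries the domain of Atm1, the mitochondrial exporter needed in yeast for cytosolic iron-sulfur proteins. It went the other way, from 4.52 ± 0.183 to 11.7 ± 1.12.

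Among the multidrug resistance associated genes (ABCC), which in plants move conjugates into the vacuole, 1 was higher and 2 were lower. Cre13.g564900 went from 114 ± 3.91 to 278 ± 24.4, while Cre14.g618600 went from 5.36 ± 0.264 to 1.73 ± 0.284 and Cre04.g228650 from 4.32 ± 0.452 to 1.6010 ± 0.861. The ABCA-like genes Cre14.g613950 and Cre17.g721000 were higher, with log2 fold changes of 1.18 ± 0.08 and 1.104 ± 0.09, and Cre03.g191350 was lower, from 2.09 ± 0.289 to 0.854 ± 0.277. Cre10.g439000 carries the domain of the peroxisomal ABCD proteins that bring fatty acids into peroxisomes, and went from 16.6 ± 0.553 to 43.1 ± 5.76. Cre05.g246450 has no domain listed and went from 21.5 ± 2.52 to 61.2 ± 4.53.

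**Figure D4:**
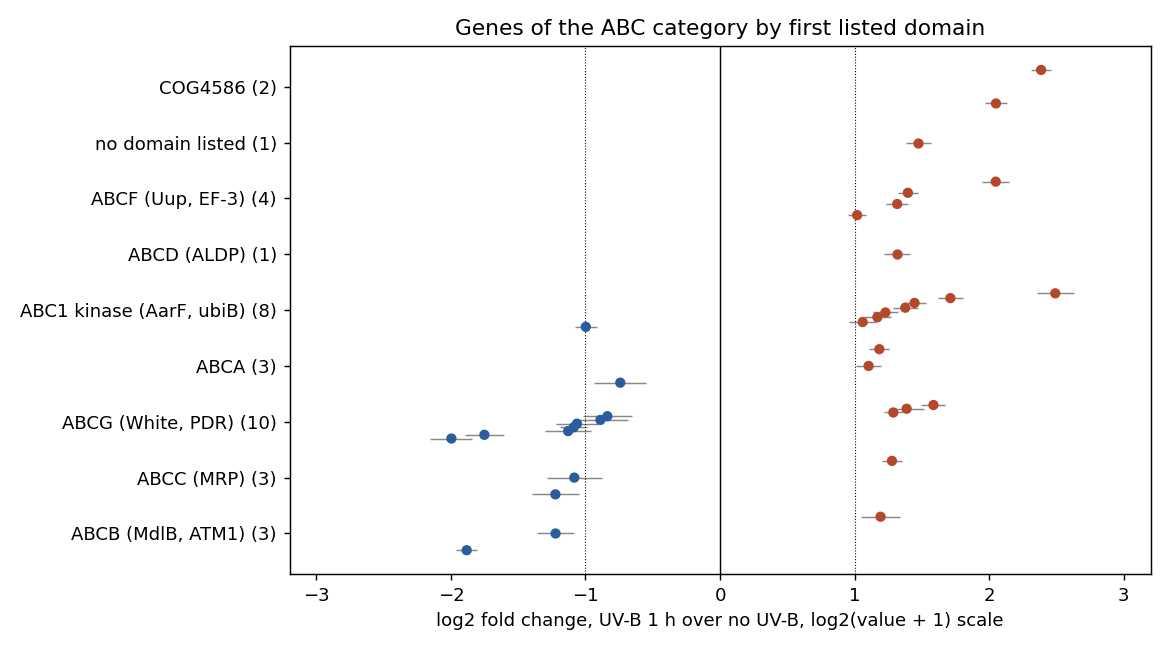
Log2 fold change (UV-B 1 h over no UV-B, log2(value + 1) scale) of the 35 genes of the ABC category by the subfamily that the leading domains in their annotation name, with limma's standard error as bars; dotted lines mark 2-fold. The 4 ABCF genes and 7 of 8 ABC1 kinases lie on the right, and 7 of 10 ABCG genes on the left.

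Metal transport genes went both ways, with 5 higher and 4 lower. The higher genes all carry a description, and they cover manganese, zinc, copper and general cation efflux. Cre07.g315200 is a putative manganese transporter related to NRAMP, a family of proton-coupled metal importers. Its values were 9.10, 10.2 and 9.73 without UV-B and 32.2, 35.9 and 30.5 with UV-B, a log2 fold change of 1.67 ± 0.11. Cre07.g355150, a zinc-nutrition responsive transporter of the ZIP family, which brings zinc and iron into the cytosol, had values of 7.02, 6.99 and 6.74 without UV-B and 20.7, 16.3 and 20.6 with UV-B, a log2 fold change of 1.34 ± 0.13. The cation efflux gene Cre03.g160800 went from 2.11 ± 0.310 to 7.34 ± 0.672. The CTR-type copper importer gene Cre10.g434350 went from 4.66 ± 0.390 to 11.016 ± 0.601. A second zinc-nutrition responsive permease gene, Cre01.g000150, went from 2.02 ± 0.787 to 5.33 ± 1.39, with 1.43, 1.72 and 2.91 in the no UV-B libraries.

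Of the 4 lower metal genes only 1 is described. This is Cre06.g281900, a zinc/iron transporter gene, which went from 8.55 ± 0.597 to 3.07 ± 0.933. Cre03.g207650 went from 8.30 ± 1.68 to 2.49 ± 1.01, Cre01.g000100 from 7.66 ± 1.15 to 3.78 ± 0.611 and Cre14.g610450 from 3.28 ± 0.214 to 1.55 ± 0.178. Their means without UV-B lay under 10, and the groups did not overlap in any of them. Only 71 of the 89 genes could be placed in the order of genes of the RefSeq annotation (assembly Chlamydomonas_reinhardtii_v5.5). Among these 71, Cre01.g000100 and Cre01.g000150 are the only pair next to each other. They differed in direction, with log2 fold changes of -0.86 ± 0.16 and 1.077 ± 0.20.

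Both calcium genes were lower. They are described as CAX family antiporters, which exchange protons for calcium at the vacuole. Cre12.g519500 had values of 71.5, 75.9 and 83.7 without UV-B and 28.0, 27.3 and 30.8 with UV-B, a log2 fold change of -1.39 ± 0.08. Cre09.g409750 had values of 20.9, 18.5 and 18.2 without UV-B and 7.26, 6.29 and 8.12 with UV-B, a log2 fold change of -1.30 ± 0.12. In both genes every UV-B library lay below every other library.

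All 3 potassium genes were higher, and no library of either group overlapped the other group. Cre07.g329882, with the domain of voltage-gated cation channels, had values of 7.02, 7.65 and 8.32 without UV-B and 20.1, 20.1 and 17.3 with UV-B. Cre12.g493000, with the KefB and Na_H_Exchanger domains of proton-coupled potassium and sodium exchangers, had values of 6.47, 6.33 and 6.90 without UV-B and 15.2, 14.5 and 14.6 with UV-B. The log2 fold changes were 1.22 ± 0.12 and 1.06 ± 0.13. g6254, with neither domain nor description, went from 5.56 ± 0.257 to 11.6 ± 0.993 (log2 fold change 0.94 ± 0.14).

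The 5 genes placed under unspecified cations were all lower. g9576, which carries a sugar transporter domain in spite of its category, had values of 75.6, 74.7 and 76.7 without UV-B and 19.6, 18.6 and 23.4 with UV-B. Its log2 fold change was -1.84 ± 0.09, the largest of the group on the log2(value + 1) scale. g8388, with neither domain nor description, had values of 25.1, 27.8 and 26.1 without UV-B and 12.2, 11.7 and 11.3 with UV-B, a log2 fold change of -1.104 ± 0.10. A pair of genes has the CorA domain of magnesium channels. One of them, g13807, described as CorA-like and a putative mitochondrial splicing factor, went from 2.60 ± 0.665 to 1.24 ± 0.453. The other, Cre08.g379900, had 42 reads in all without UV-B and 5 with UV-B, and 1 UV-B library had none. Its log2 fold change on the log2(value + 1) scale was -1.12, and that in the authors' deposited table, which treats low values differently, was -3.18. The rhomboid-like protease gene Cre12.g526700 went from 9.25 ± 0.448 to 3.14 ± 1.09.

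**Figure D5:**
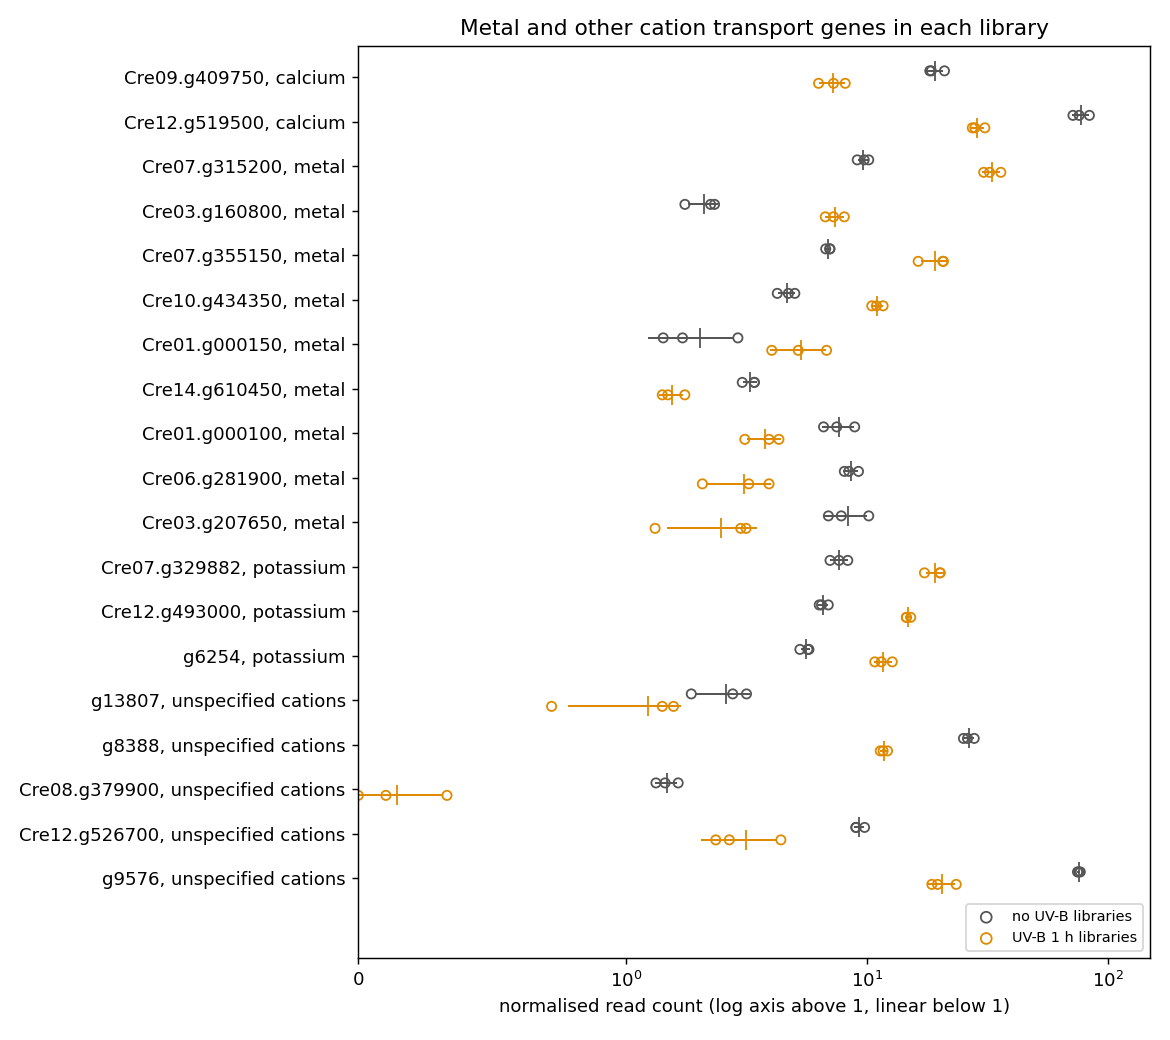
Normalised read count (log axis above 1, linear below 1) of the 19 genes in the metal, calcium, potassium and unspecified cation groups in each library, with no UV-B libraries in grey and UV-B 1 h libraries in orange; ticks are means and bars SDs (n = 3), and 1 bar is cut off at 0. The 3 potassium genes lie higher with UV-B and the 2 calcium genes and 5 unspecified cation genes lower.

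All 4 genes of the unspecified anion category were higher. The domains of 3 of them are those of ClC proteins, a family of chloride channels and proton-chloride exchangers of plasma and organelle membranes. Cre01.g037150 had values of 13.8, 12.7 and 13.972 without UV-B and 36.8, 30.5 and 33.5 with UV-B, a log2 fold change of 1.25 ± 0.10. Cre09.g404100 had values of 15.9, 13.5 and 15.4 without UV-B and 33.7, 32.5 and 31.9 with UV-B, a log2 fold change of 1.09 ± 0.10. All UV-B libraries of these genes lay above all others. Cre17.g729450 went from 103 ± 1.48 to 218 ± 12.7 (log2 fold change 1.07 ± 0.07). The remaining gene, Cre03.g204800, has no description. Its category names an arsenite-transporting ATPase and its domain is ArsA_ATPase, after an ATPase of arsenite efflux in bacteria. Whether it serves transport in this alga was not tested. It had 1.32, 1.32 and 3.74 without UV-B and 5.94, 4.64 and 4.64 with UV-B, so 1 control library lay nearer to the UV-B libraries than to the other controls.

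The 1 phosphate gene of the list was lower. Cre09.g396950, described as a sodium-dependent phosphate transporter of the major facilitator superfamily, had values of 262, 276 and 286 without UV-B and 129.96, 119.7 and 142 with UV-B, a log2 fold change of -1.07 ± 0.07. Every UV-B library lay below every other library.

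The list places metabolite carriers at the plastid envelope and at the mitochondrial membrane. Of the pair at the plastid envelope, Cre06.g263850, described as a triose phosphate/phosphate translocator, which exports the products of carbon fixation in exchange for phosphate, had values of 23.9, 23.2 and 25.1 without UV-B and 59.8, 55.6 and 62.0 with UV-B. Its log2 fold change was 1.26 ± 0.08. Cre13.g581400, the plastidic ADP/ATP translocase, which brings ATP into the plastid, had values of 14.3, 18.6 and 17.8 without UV-B and 2.73, 4.13 and 4.80 with UV-B. Its log2 fold change was -1.89 ± 0.16, so the pair went in opposite directions.

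The 4 genes placed at the mitochondrial membrane were higher and had few reads, with no mean reaching 10. Cre09.g404450, with the Mito_carr domain of the mitochondrial carrier family, had values of 3.4003, 1.85 and 3.16 without UV-B and 7.73, 7.53 and 6.54 with UV-B, a log2 fold change of 1.14 ± 0.18. g18072, a possible carnitine/acylcarnitine carrier, went from 3.90 ± 0.519 to 8.71 ± 0.821, and Cre02.g092050, a mitochondrial substrate carrier, from 4.10 ± 0.727 to 8.88 ± 0.605. The last is Cre04.g223300, which is described as a low-CO2-inducible protein of the chloroplast envelope. Its description and its category thus name different membranes, and which of them holds was not tested. Cre04.g223300 had 2.08, 0.792 and 0.832 without UV-B and 2.83, 1.86 and 2.90 with UV-B, and it was the only gene of the 89 whose groups overlapped. Another gene of the authors' table, Cre04.g222750, has the same description; whether the pair shares reads was not examined.

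Sugar carriers were 3 higher and 1 lower. The lower gene was Cre03.g206800, a hexose transporter, with values of 22.8, 24.3 and 23.4 without UV-B and 6.79, 7.63 and 9.36 with UV-B, a log2 fold change of -1.47 ± 0.12. Cre02.g112900, with the domain of VRG4, the GDP-mannose carrier of the yeast Golgi, had values of 6.69, 6.60 and 7.24 without UV-B and 12.9, 15.7 and 15.2 with UV-B, a log2 fold change of 0.99 ± 0.13. g17910, whose domains are those of the same sugar transporter family as the hexose transporter, went from 1.83 ± 0.352 to 4.30 ± 0.650. Cre17.g710850, which has no domain listed, went from 0.784 ± 0.255 to 2.01 ± 0.490 and had the fewest reads without UV-B of all 89 genes, with 22 over 3 libraries.

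The amino acid, ammonium and nucleotide categories held few genes. Cre13.g572200, with a permease domain for aromatic amino acids, had values of 7.79, 6.33 and 8.73 without UV-B and 17.1, 20.9 and 17.972 with UV-B, a log2 fold change of 1.19 ± 0.13. Cre06.g264450, an amino acid transporter, had values of 10.9, 11.5 and 11.3 without UV-B and 3.86, 5.05 and 5.80 with UV-B, a log2 fold change of -1.06 ± 0.15. In the ammonium category, the ammonium transporter gene Cre07.g355650 went from 1.91 ± 0.306 to 4.43 ± 0.376. The Rh protein gene Cre06.g284150 belongs to the Rhesus branch of the ammonium transporter family, whose members conduct gases such as ammonia. It had values of 34.6, 30.2 and 26.1 without UV-B and 6.79, 7.63 and 8.20 with UV-B, a log2 fold change of -1.87 ± 0.12. Cre12.g523100 is the only gene of the nucleotide category. It has no description, and its listed domain, DUF803, does not name nucleotides, so only the category ties it to them. Whether it carries nucleotides was not tested. It had values of 8.23, 5.81 and 8.07 without UV-B and 2.26, 2.58 and 2.40 with UV-B, a log2 fold change of -1.28 ± 0.17.

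The miscellaneous category held 5 higher and 4 lower genes. Both genes with the NorM domain of the MATE family, which extrudes organic cations and toxins in exchange for protons or sodium, were higher. Cre12.g499700, a MATE efflux protein gene, had values of 2.85, 2.24 and 1.83 without UV-B and 13.1, 10.9 and 14.5 with UV-B, a ratio of the means of 5.56 and a log2 fold change of 2.07 ± 0.16. The other MATE gene, Cre01.g027764, went from 11.5 ± 1.49 to 28.2 ± 2.24. Cre09.g415750, a general substrate transporter of the major facilitator superfamily, had values of 28.8, 35.8 and 36.7 without UV-B and 102, 108 and 98.3 with UV-B, a log2 fold change of 1.59 ± 0.09. Cre13.g563850 and g6310, with no domain listed, went from 8.39 ± 0.509 to 24.9 ± 2.64 and from 1.35 ± 0.175 to 4.57 ± 0.698.

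Both genes with the BT1 domain of folate and biopterin transporters were lower. Cre06.g311000, described as a folate transporter, had values of 22.047, 19.3 and 23.3 without UV-B and 4.81, 3.51 and 4.06 with UV-B, a log2 fold change of -2.14 ± 0.14. The other, Cre03.g162450, had 46 reads without and 12 with UV-B over 3 libraries each. The exportin gene Cre12.g496200 had values of 13.3, 10.3 and 13.5 without UV-B and 4.15, 4.33 and 5.80 with UV-B, a log2 fold change of -1.21 ± 0.15. g8390, a transient receptor potential channel gene, went from 1.73 ± 0.136 to 0.730 ± 0.277, with all values below 2.

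The choice of genes has a threshold in the authors' deposited table, where the smallest absolute log2 fold change is 1.00. Just inside it lay Cre02.g105600 at -1.01, Cre01.g000100 and Cre07.g339104 at -1.02 and g11711 at 1.03, and 11 of the 89 genes lay below 1.1. Genes just outside it have no category in the sources used here and are not described. At the other end, 5 higher and 7 lower genes differed by at least 4-fold in that table. Fold changes computed with edgeR on the reads recovered from the deposited values differed from those in the authors' deposited table by a median of 0.0058 (log2) over the 89 genes.

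The order of genes in the RefSeq annotation, which played no part in the choice, could be followed for 71 of the 89 genes. For 65 of them at least 1 direct neighbour was measured, giving 95 neighbours outside the list. Of these, 17 differed by at least 2-fold (17.9%), against 13.1% of all genes tested, and this difference was not tested. The change had the same direction as in the transport gene for 11 and the opposite direction for 6. Chosen after their values were seen, the neighbours of a pair of genes are given. Around the folate transporter gene Cre06.g311000 both neighbours were lower as well, Cre06.g310950 with a log2 fold change of -2.86 and Cre06.g311050 with -1.54. Cre11.g468550, the V-ATPase subunit G gene, had a log2 fold change of 1.25 beside a neighbour, Cre11.g468600, at -3.60. Whether reads from overlapping neighbours were counted by strand is stated in no source used here.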

How the data were processed

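The authors' deposited table holds a signal per gene and library, which is the read count over an effective library size, for 13452 genes in 6 libraries, per the file headers and values. The authors used edgeR 3.4.2, HTSeq 0.5.3p9 and TopHat2, per the submitters' processing notes. Genome build, gene models, strand setting and the treatment of reads with several matches are stated in no source used here. Libraries were made from 400 ng of RNA, per the labels' protocols, with a kit that keeps the strand. A further table deposited by the authors gives log2 fold changes, log2 CPM, p-values, false discovery rates, descriptions, domains and functional categories for 2596 genes; its FDR for the 89 genes is at most 0.00542.

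The 89 genes and all groupings were chosen with earlier results of these data known, and the authors' table had selected them on the same comparison, so no test of them is given. The 18 categories were merged into 15 substrate groups. In each substrate group, values in every library are printed for the 2 genes with the largest increase and the 2 with the largest decrease among those with a mean of at least 10 in a group, or, where none reaches 10, for the gene with the largest change. The others are given by means or ranges, and a few libraries of variable genes were added after their values were seen.

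limma 3.58.1 (R 4.3.3, with a mean-variance trend) was fitted to log2(value + 1) of the 13415 genes that reached 1 in 3 or more libraries, 3 UV-B against 3 no UV-B, with Benjamini-Hochberg adjustment at 0.05. Standard errors are limma's. Every value was a whole multiple of that of 1 read within 0.001 reads (100% in each library), though in 1 library, no UV-B replicate 3, 0 genes had exactly 1 read. On the recovered reads, edgeR 4.0.16 called 7938 genes and DESeq2 1.42.0 called 6830, against 7920 with limma. The fits were tried on simulated reads with far fewer changed genes than were called here and the same dispersion for every gene. That checks the code and not the error rates in these data. Depth was 7868534 to 11972794 reads per library, and counting error limits the low genes. All columns of library values were used.

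Alternatives were other pseudocounts, filters and scalings, limma without a trend, a replicate block and each library left out in turn. RefSeq (assembly Chlamydomonas_reinhardtii_v5.5) served for gene order only; 9922 of 13452 genes (73.8%) and 71 of the 89 matched, without symbols or product names, and no coordinates are given because the authors' build is not named. Levels are not compared between genes, since coding lengths were not used here, and no sequences are shown. Exceptions are the summed normalised counts and the share of Cre03.g164600 in the sum of the lower genes. Both also depend on transcript length. Python 3.11.15, pandas 2.3.3 and matplotlib 3.10.9 served for tables and plots.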

Additional observations from a re-analysis of the deposited data

How the results depend on the processing

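Under all 19 alternatives, no gene of the 89 that remained in the fit changed direction, and 52 were higher and 37 lower in each, except with a minimum value of 5, which left out 16 genes and gave 45 and 28. The selection at 2-fold or more leaves little room for a change of sign. Sizes moved more: 207 of 1675 single fold changes moved by more than the spread between replicates. The median log2 fold change of 0.99 became 1.13 with a pseudocount of 0.1, 0.61 with a pseudocount of 5 and 1.12 with edgeR on the recovered reads. Genes at least 2-fold higher and lower, 44 and 28, became 30 and 13 with the pseudocount of 5, and 52 and 37 with the pseudocount of 0.1, edgeR or DESeq2. The authors used edgeR and their table holds only genes at 2-fold or more. The counts with edgeR were thus largely set by the selection, and nothing is read from them. A pseudocount shrinks low values by construction. With each library left out in turn, the median ran from 0.96 to 1.03, genes at least 2-fold higher from 43 to 47 and lower from 26 to 30, and the calls over all genes from 7242 to 7565 (3626 to 3739 higher and 3598 to 3844 lower). An equal total in every library gave 4533 higher and 3187 lower calls over all genes, against 3955 and 3965, and moved the median of all genes to 0.09.

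Same-numbered libraries deviated together only weakly (correlations of 0.045, 0.024 and 0.120), so the numbers were not taken as pairs. With the replicate number as a block, 8102 genes passed (4020 higher and 4082 lower), and the counts of the 89 genes, 44 at least 2-fold higher and 28 lower, and their median of 0.99 stayed the same. Few reads limit 5 genes with under 100 reads over 6 libraries. The comparison with transport genes named by RefSeq products was not run, because the table used here gives no product names, and levels per coding length were not computed.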

Other observations

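Some genes that the authors' table describes as a transporter or permease have no transport category there, and so lie outside the 89. They were found by their descriptions, and their differences were selected by the same table. Cre07.g348600, described as a chloroplast sulfate permease, which brings sulfate into the plastid for cysteine synthesis, went from 5.33 ± 0.442 to 14.2 ± 1.33 (mean ± SD, n = 3; log2 fold change 1.26 ± 0.14, SE). Cre13.g571500, a membrane transporter of unknown function described as specific to Chlamydomonas, went from 493 ± 26.4 to 177 ± 12.3 (log2 fold change -1.47 ± 0.07). Cre13.g579450, with the same description, went from 2777 ± 47.3 to 1168 ± 80.6, Cre06.g271800, a putative SWEET glucose efflux transporter, from 26.5 ± 1.103 to 10.8 ± 0.809 and Cre06.g301800, a major facilitator permease, from 6.67 ± 0.820 to 2.89 ± 0.358.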
